A study of Mus musculus with 14 samples.

Results

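Immediate early and heat shock genes are the transcripts that cells raise within minutes of a stimulus or a stress. The 37 members described here were taken by symbol from the 2 deposited tables of bulk RNA-sequencing counts, each of which lists 50508 mouse gene symbols, and all 37 are in both tables. They comprise 23 immediate early and feedback genes and 14 heat shock genes. The study concerned ILTCk, which are innate-like αβ T cells with killer function that occur in tumours, and ILTCkP, the progenitors of ILTCk in the thymus. There were 5 groups of 2 libraries. The thymic table held CD8SP, conventional CD8 single-positive thymocytes, and ILTCkP, both labelled C57BL/6. The other table held PD1+ Tconv, which are conventional T cells with PD-1 on their surface, NK1.1+ ILTCk and NK1.1- ILTCk, all 3 labelled retrogenic, that is, from mice whose blood cells descend from transferred stem cells with an added T cell receptor gene. It is called the tumour table here, because per the labels' protocols tumours were the source from which PD1+ Tconv and NK1.1+ ILTCk were sorted. The sample titles call the last 2 groups ILTCk, but their cell type labels read NK1.1+ ILTCkP and NK1.1- ILTCkP. The titles were followed, as in the series' design text. Not given in the sources used here were the gate and tissue of the NK1.1- ILTCk cells, the receptor introduced and the ages of the mice. The series' design text calls the 2 libraries of each group biological replicates. Whether they came from separate mice is not stated, and the p-values therefore cover only the spread between the libraries, which may be technical.

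Immediate early genes answer a stimulus without new protein synthesis: kinase cascades act on transcription factors that already sit in the cell, such as serum response factor, CREB and NF-kB. Many encode transcription factors of the AP-1 family, in which Fos proteins pair with Jun proteins, and others encode feedback inhibitors that end the signal, by removing phosphate from MAP kinases, by marking mRNA for decay or by holding NF-kB in the cytoplasm. Heat shock genes encode chaperones that refold damaged proteins, and the inducible ones are switched on by heat shock factor 1. In T cells immediate early genes follow antigen receptor signals, and both programmes are also known to rise while tissue is minced, warmed and digested. Per the labels' protocols, tumour tissue was digested with collagenase and DNase I at 37 °C for 1 hour and 15 minutes before sorting, whereas the preparation of the thymus is not given in the sources used here. Preparation and table therefore cannot be told apart.

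Start-site sequences were available for 32 of the 37 members in RefSeq on GRCm38.p6 and were searched on both strands from 250 bases before to 50 bases after each start. The 250 bases before the start are shown for Fos, the AP-1 gene with the highest level in the ILTCk libraries of the tumour table, at chr12:85473640-85473889 on the plus strand. They are also shown for Zfp36l1, the lone member whose tumour levels all lay below its thymic levels, at chr12:80113014-80113263 on the minus strand. Nfkbia is shown at chr12:55492648-55492897, minus strand, as the NF-kB inhibitor. The near-identical stress genes Hspa1a and Hspa1b are shown at chr17:34972157-34972406 and chr17:34959239-34959488, both on the minus strand. Capitals mark matches to the NF-kB site, the AP-1 site (TGANTCA) or the TATA box (TATAAA).
Fos: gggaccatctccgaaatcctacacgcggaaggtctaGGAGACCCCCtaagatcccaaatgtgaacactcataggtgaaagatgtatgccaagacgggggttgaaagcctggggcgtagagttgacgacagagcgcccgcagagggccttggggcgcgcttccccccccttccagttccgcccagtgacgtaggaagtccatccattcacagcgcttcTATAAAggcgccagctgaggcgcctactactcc
Zfp36l1: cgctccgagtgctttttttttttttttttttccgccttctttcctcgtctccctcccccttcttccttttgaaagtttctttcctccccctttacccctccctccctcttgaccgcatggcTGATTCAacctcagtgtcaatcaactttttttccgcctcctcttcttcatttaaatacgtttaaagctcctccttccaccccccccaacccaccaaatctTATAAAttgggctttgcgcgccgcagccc
Nfkbia: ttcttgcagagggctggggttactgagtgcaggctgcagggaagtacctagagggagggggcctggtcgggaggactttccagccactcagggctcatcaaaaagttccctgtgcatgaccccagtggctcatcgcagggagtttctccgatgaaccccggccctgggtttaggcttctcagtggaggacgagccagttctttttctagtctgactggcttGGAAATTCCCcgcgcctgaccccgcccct
Hspa1a: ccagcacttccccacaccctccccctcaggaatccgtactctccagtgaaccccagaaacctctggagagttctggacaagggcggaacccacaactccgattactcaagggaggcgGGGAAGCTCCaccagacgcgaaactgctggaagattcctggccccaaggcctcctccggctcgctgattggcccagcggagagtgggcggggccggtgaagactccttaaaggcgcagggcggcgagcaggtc
Hspa1b: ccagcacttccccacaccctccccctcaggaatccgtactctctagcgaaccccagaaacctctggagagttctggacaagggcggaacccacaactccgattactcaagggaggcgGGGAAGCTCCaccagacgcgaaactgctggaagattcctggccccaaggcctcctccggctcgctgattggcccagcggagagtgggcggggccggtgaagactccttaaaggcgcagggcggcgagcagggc

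The Fos window held a TATA box ending 28 bases before the start and an NF-kB match further upstream. In Nfkbia the NF-kB match lay 29 to 20 bases before the start. Zfp36l1 held an AP-1 match and a TATA box. The windows of Hspa1a and Hspa1b were identical at 247 of 250 bases (98.8%). The NF-kB site, a 10-base pattern with several free positions, was found in 11 of the 32 members (34.4%). The share was 9.55% of 27025 genes with such a window. Among the members were Tnfaip3, Ier3, Fosb and Fosl2, and also Hspa1a, Hspa1b, Hspd1 and Hspe1. Hspa1a and Hspa1b have near-identical windows and Hspd1 and Hspe1 share a region, so their matches are not independent. The heat shock element, 3 units of GAA and TTC in turn set 2 bases apart, was found in 3 members (9.38%) and in 0.662% of genes. In Hspd1 and Hspe1, which share a start region on opposite strands of chromosome 1, it read TTCCGGAAGGTTC and TTCTAGAACCTTC, and in Hsph1 it read TTCTGGAAAGTTC just inside the transcript. The cAMP response element TGACGTCA was found in Btg2, Dusp1, Maff and Ppp1r15a, that is 12.5% of the members and 2.03% of genes. The AP-1 site was in 4 members (12.5%; 8.97% of genes), the TATA box in 7 (21.9%; 15.7% of genes) and the CArG box, which serum response factor binds, in Zfp36 alone (3.12%; 1.81% of genes). These are matches to set letter patterns in a short window, with overlapping matches counted once per gene, and looser forms would be missed. Hspa1a, Hspa1b, Dnajb1, Hspb1 and Bag3, for example, held no match to the heat shock element. Of the TATA box matches, those of Junb, Ppp1r15a and Nfkbia lay at or after the start, and that of Tnfaip3 lay far upstream. By GENCODE M21, 7 members (18.9%) had a single exon, among them Jun, Jund, Ier2, Ier5, Hspa1a and Hspa1b, against 6.06% of 21951 protein-coding genes.

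The 10 libraries held 16530085 to 32097301 counts over 17741 to 24559 genes. The summed level of 12 T cell markers was 10114 to 14277 CPM (counts scaled to a common library size, with TMM factors, within a table) in the thymic libraries and 967 to 8828 CPM in the tumour table, and no T cell marker was at 0 in any group. Within the thymus the T cell marker sum was 14277 and 13163 CPM in CD8SP and 10149 and 10114 CPM in ILTCkP. The sum of 8 B cell markers was 49.2 and 45.1 CPM in CD8SP and 106 and 82.6 CPM in ILTCkP. For 6 erythroid markers it was 11.9 and 0.633 CPM in CD8SP and 90.0 and 11.8 CPM in ILTCkP. The part of these sums in the thymic results was not tested. Sums of macrophage, epithelial and gland markers were low in the thymus and high in the tumour table. The sum of 15 macrophage and myeloid markers was 33.8 to 53.0 CPM in the thymus, 239 and 1580 CPM in PD1+ Tconv, 3971 and 3780 CPM in NK1.1- ILTCk, and 9244 and 24968 CPM in NK1.1+ ILTCk. The sum of 13 epithelial and mammary tumour markers was 8.47 to 10.7 CPM in the thymus and 2436 to 10536 CPM in the tumour libraries. For 10 gland secretory genes it was at most 0.241 CPM in the thymus, 1243 to 44457 CPM in 5 tumour libraries and 299958 CPM in PD1+ Tconv replicate 2. All 15, 13 and 10 of these genes had counts in each group of the tumour table, whereas 2, 5 or 6, and 8 or 9 of them were at 0 in both libraries of a thymic group. The tumour libraries thus held transcripts of other cells, and the part of these other cells in each result below was not tested. In bulk libraries, fewer cells of a type and less RNA per cell cannot be told apart.

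**Figure D1:**
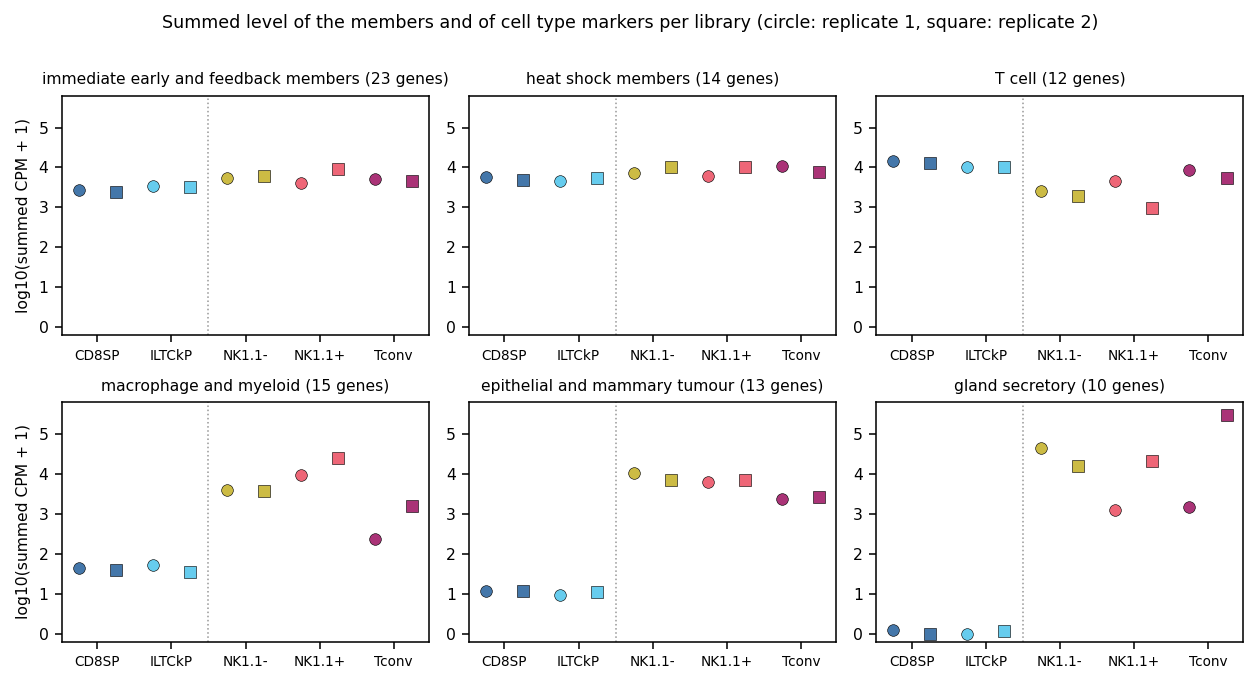
Summed CPM, on a log10(CPM + 1) scale, of the 23 immediate early and feedback members, the 14 heat shock members and 4 cell type marker lists in each of the 10 libraries (circles replicate 1, squares replicate 2; the dotted line parts the thymic from the tumour table). Both member sums vary far less between libraries than the macrophage, epithelial and gland sums, and NK1.1+ ILTCk replicate 2 has the highest immediate early sum, 9303 CPM.

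By level per kilobase of exon (RPKM), the order of the members was led by chaperones in every group. Hsp90ab1, a constitutive cytosolic Hsp90, ranked first in all 5 groups, from 545 RPKM in CD8SP to 855 in NK1.1- ILTCk (means of 2 libraries). Hspa8, the constitutive cytosolic Hsp70, followed within the next 2 ranks throughout. Junb ranked 3 in CD8SP with 264 and 227 RPKM and second in ILTCkP with 422 and 421 RPKM. Fos was second in NK1.1- ILTCk with 605 and 649 RPKM and in NK1.1+ ILTCk with 374 and 842 RPKM, where its libraries overlapped those of Hspa8. It was sixth in PD1+ Tconv with 158 and 269 RPKM, eighth in CD8SP and seventh in ILTCkP. The lowest ranks in the thymus went to Klf4 and Atf3, at most 0.192 RPKM in every thymic library.

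In none of the 4 comparisons did a member pass an adjusted p of 0.05 in edgeR's quasi-likelihood test, fitted over all genes of a table. For ILTCkP against CD8SP, 34 members could be tested and 0 were called, against 4.71% of 14634 genes (3.38% higher, 1.33% lower). At an unadjusted p under 0.05 there were 8 members (5 higher and 3 lower), against 22.1% of all genes (13% and 9.06%). Of the 37 members tested in the tumour libraries 0 were called in any comparison, as were 0% of 18091 genes. The unadjusted counts were 3 members higher and 2 lower for NK1.1+ ILTCk against PD1+ Tconv (14.3% of all genes, 6.98% higher and 7.34% lower). They were 3 and 3 for NK1.1- ILTCk against PD1+ Tconv (11.9%, 5.96% and 5.91%) and 0 for NK1.1+ against NK1.1- ILTCk (3.94%, 2.18% and 1.75%). DESeq2 called 3, 2, 1 and 0 members in the 4 comparisons in that order, beside 1997, 1268, 707 and 57 of all genes. For limma-voom it was 0 members in each, beside 816, 3, 0 and 0 of all genes. Nothing is read from these counts about the members. The members' median log2 fold changes were -0.06, 0.11, -0.04 and 0.20, beside 0.01, -0.04, -0.04 and 0.01 over all genes tested. Both comparisons against PD1+ Tconv share the same 2 PD1+ Tconv libraries.

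**Figure D2:**
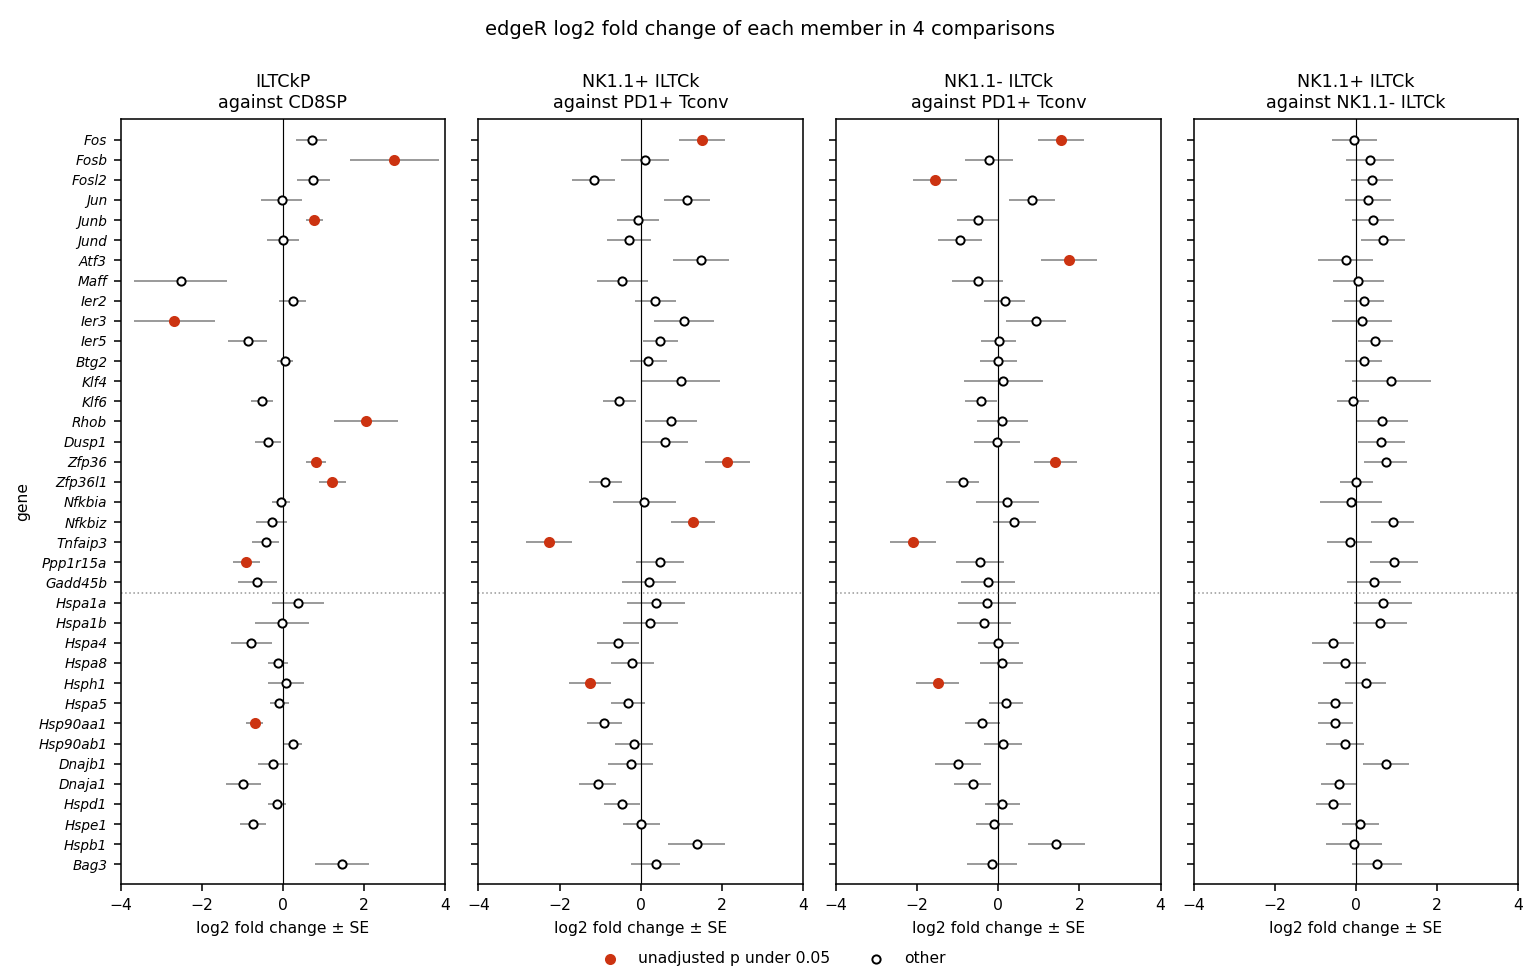
Log2 fold change (edgeR, horizontal axis) ± standard error of each member in the 4 comparisons, with immediate early and feedback genes above the dotted line and heat shock genes below it; filled points have an unadjusted p under 0.05. No member passed an adjusted p of 0.05, and Atf3, Klf4 and Hspb1 were not tested in the thymus.

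In the thymus 7 of the 34 tested members were higher and 11 lower in both ILTCkP libraries than in both CD8SP libraries, beside 28.8% and 29.3% of all genes. Atf3, Klf4 and Hspb1 had too few counts to be tested. The AP-1 gene with the smallest p was Junb (chr8:84974484-84978718, minus strand), whose product restrains Jun and is abundant in lymphocytes. Its level was 608 and 523 CPM in CD8SP and 970.0 and 969 CPM in ILTCkP. The groups did not overlap and the libraries of each were close, yet the log2 fold change of 0.78 ± 0.20, adjusted p = 0.0972, did not pass the test. DESeq2 called it, at an adjusted p of 0.0342, as it did Fosb (0.0332) and Zfp36l1 (0.0127). Fosb, a Fos relative, stood at 2.59 and 0.158 CPM in CD8SP and 10.4 and 7.91 CPM in ILTCkP, so the second CD8SP library was the low one. Its log2 fold change was 2.74 ± 1.101, adjusted p = 0.224. Without CD8SP replicate 1, which had 75 counts, it was 5.83 and rested on the CD8SP library with 5 counts. Fos itself, the founding Fos subunit, had 251 and 159 CPM in CD8SP and 439 and 232 CPM in ILTCkP, and the groups overlapped. The log2 fold change was 0.71 ± 0.38, adjusted p = 0.336. Jun, the main Fos partner, showed its widest gap within ILTCkP, with 47.1 and 143 CPM against 104 and 91.0 CPM in CD8SP. Its fold change was -0.03 ± 0.51, adjusted p = 0.975 and changed sign when ILTCkP replicate 1 was left out, to 0.56, or CD8SP replicate 1, to 0.08. Of the 7 AP-1 members tested, 5 had a positive and 2 a negative fold change. Maff, a small Maf protein, was among the negative ones at -2.52 ± 1.14, adjusted p = 0.267, from 11 and 31 counts in CD8SP and 1 and 6 in ILTCkP.

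Zfp36l1 and Zfp36, which bind AU-rich mRNA and speed its decay, had the next smallest p-values. Zfp36l1 had 88.0 and 74.6 CPM in CD8SP and 246 and 133 CPM in ILTCkP. Zfp36 had 242 and 206 CPM in CD8SP and 457 and 331 CPM in ILTCkP. Neither pair of groups overlapped, and the log2 fold changes were 1.22 ± 0.34, adjusted p = 0.113 and 0.81 ± 0.25, adjusted p = 0.138. Exons of Zfp36l1 overlap those of Gm26669 on the opposite strand by 1672 bases, and the strand setting of the counting is not stated. The same limit holds for other members, among them Jund (877 bases with Gm11175), Dnaja1 (608 with Smu1) and Hspa1a (564 with Gm20481). Dusp1, the phosphatase that removes activating phosphates from MAP kinases, went the other way, with 26.7 and 29.9 CPM in CD8SP and 19.0 and 24.8 CPM in ILTCkP (-0.37 ± 0.31, adjusted p = 0.523).

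Ier3, an early gene that modulates survival, had 2.48 and 2.09 CPM in CD8SP and 0.0788 and 0.613 CPM in ILTCkP, and its fold change was -2.68 ± 0.99, adjusted p = 0.196. The gene stood at 2.48 CPM or lower in all 4 libraries. Ppp1r15a, which restarts translation after eIF2α phosphorylation, had 99.1 and 70.4 CPM in ILTCkP against 199 and 119 CPM in CD8SP (-0.91 ± 0.33, adjusted p = 0.194). Nfkbia, which encodes the NF-kB inhibitor IκBα, had 355 and 302 CPM in CD8SP and 348 and 290.1 CPM in ILTCkP. Those libraries overlapped, and the fold change of -0.04 ± 0.22, adjusted p = 0.928 changed sign without CD8SP replicate 1 (0.09) or without ILTCkP replicate 2 (0.08).

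Among the thymic heat shock genes, 9 of 13 fold changes were negative and 1 had an unadjusted p under 0.05. This was Hsp90aa1, the inducible cytosolic Hsp90, with 311 and 270.0 CPM in CD8SP and 163 and 194 CPM in ILTCkP. The groups did not overlap, and the log2 fold change was -0.70 ± 0.22, adjusted p = 0.141. Dnaja1, an Hsp40 that hands clients to Hsp70, had 176 and 195 CPM and 54.3 and 134 CPM (-0.98 ± 0.43, adjusted p = 0.259). Hspe1, the lid of the mitochondrial chaperonin, had 118 and 99.9 CPM and 48.0 and 81.5 CPM (-0.75 ± 0.32, adjusted p = 0.244). In both, ILTCkP replicate 1 was the lowest library. Bag3, an Hsp70 co-chaperone, had 0.724 and 0.728 CPM and 2.56 and 1.44 CPM (1.46 ± 0.67, adjusted p = 0.274). The stress-inducible Hsp70 genes spread more within groups than between them. Hspa1a had 168 and 50.03 CPM in CD8SP and 83.6 and 198 CPM in ILTCkP, so that each group had a high and a low library (0.37 ± 0.65, adjusted p = 0.774). Hspa1b repeated this, with 323 and 119 CPM and 101 and 331 CPM (-0.03 ± 0.67, adjusted p = 0.981). Of the transcript sequence, 60.3% of the 50-base stretches of Hspa1a and 62.3% of those of Hspa1b occur in transcripts of another gene, mainly of each other, so the counting may have split reads between them. Such shared stretches, mainly with pseudogenes, made up 47.5% in Hsp90aa1, 38.6% in Hspa8, 39.7% in Hspd1, 18.4% in Hspe1 and 11.9% in Dnaja1, whose values are uncertain for the same reason. Hspa8 varied less, from 1356 and 1207 CPM in CD8SP to 978 and 1372 CPM in ILTCkP (-0.13 ± 0.24, adjusted p = 0.796).

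The thymic fold changes of members shifted with the library left out. With 1 ILTCkP library left, the spread in the fit came from the 2 CD8SP libraries alone. Between these, 3.57% of all genes differed over 2-fold, against 20.8% in ILTCkP. Nothing is therefore read from the calls of such fits, which also share the CD8SP libraries. Junb stood at 0.78 without ILTCkP replicate 1 and at 0.78 without replicate 2. In the same order Zfp36 stood at 0.57 and 1.03, and Hsp90aa1 at -0.58 and -0.83. Jun and Hsph1 took opposite signs in the 2 fits. Without ILTCkP replicate 1 their fold changes were 0.56 and 0.61, and without replicate 2 they were -1.05 and -0.76. Sizes moved too: Dnaja1 was at -0.46 without ILTCkP replicate 1 and -1.78 without replicate 2, and Zfp36l1 at 0.72 and 1.59. Without replicate 2, Hspe1 was at -1.18 and Ier3 at -4.78.

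**Figure D3:**
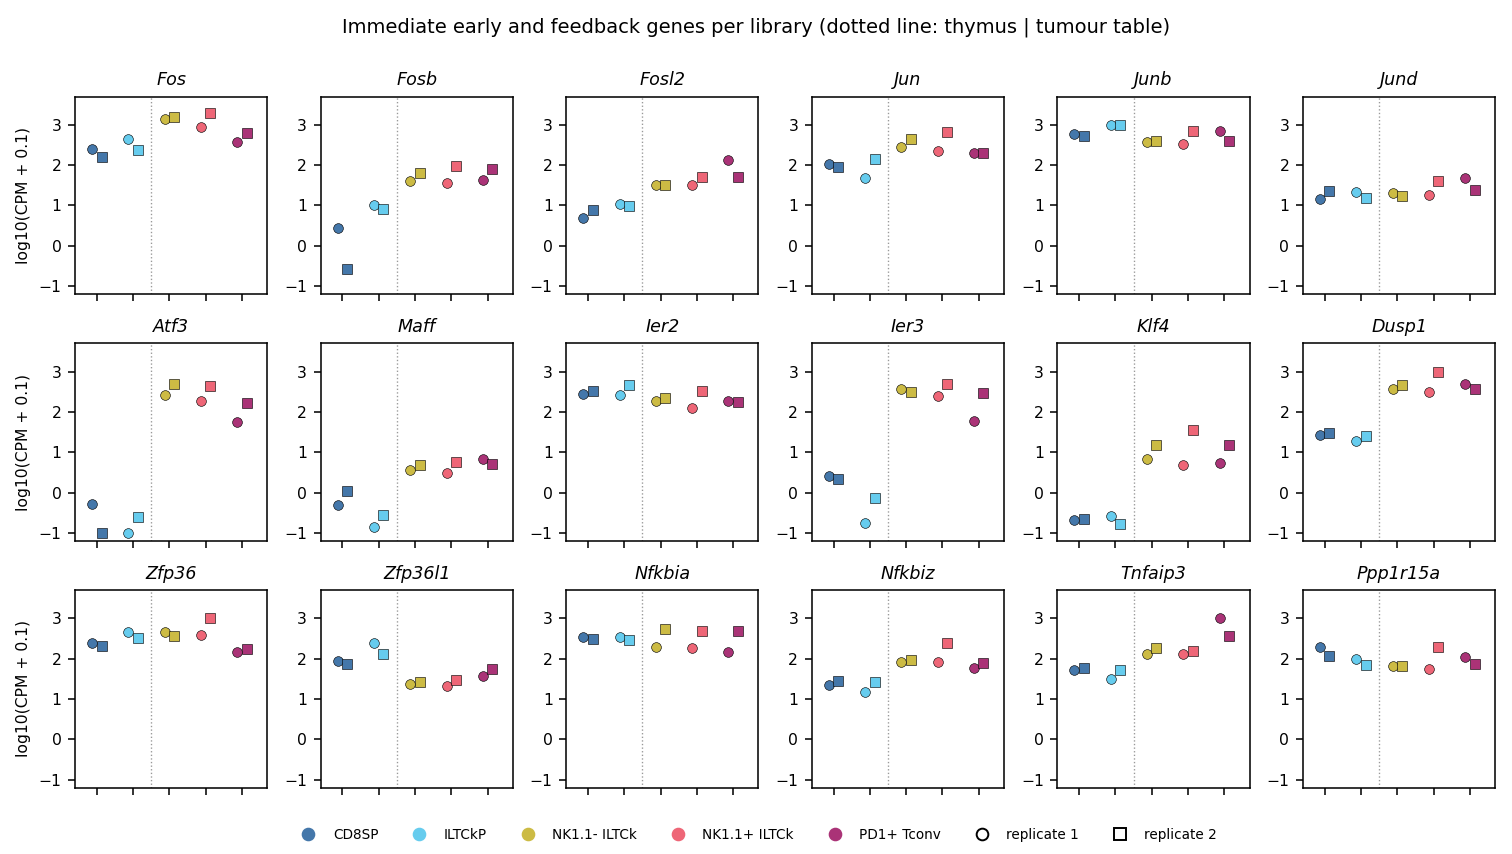
Level of 18 immediate early and feedback members in each library, as log10(CPM + 0.1), with CD8SP and ILTCkP to the left of the dotted line and the tumour table to its right; circles are replicate 1 and squares replicate 2. Atf3, Ier3 and Klf4 sit below 3 CPM in every thymic library and above 4 CPM in every tumour library, whereas Zfp36l1 is lower in the tumour table.

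Against PD1+ Tconv, the member with the smallest p in both ILTCk groups was Tnfaip3 (chr10:19000910-19015657, minus strand), which encodes A20, the ubiquitin-editing enzyme that ends NF-kB signals. It had 1014 and 365 CPM in PD1+ Tconv, 133 and 189 CPM in NK1.1- ILTCk and 132 and 157 CPM in NK1.1+ ILTCk. Every ILTCk library was below both PD1+ Tconv libraries, and the first PD1+ Tconv library was far above the second. The log2 fold changes were -2.26 ± 0.57, adjusted p = 0.183 for NK1.1+ ILTCk and -2.10 ± 0.57, adjusted p = 0.361 for NK1.1- ILTCk. DESeq2 called both, at adjusted p-values of 0.00396 and 0.0162. The other NF-kB feedback members did not share the direction. Nfkbiz, an IκB protein that helps NF-kB activate selected genes, had 59.3 and 76.4 CPM in PD1+ Tconv and 83.7 and 249.8 CPM in NK1.1+ ILTCk (1.30 ± 0.54, adjusted p = 0.345). In Nfkbia each of the 3 groups had a low first and a high second library, namely 195 and 531 CPM in NK1.1- ILTCk, 184 and 481 CPM in NK1.1+ ILTCk and 148 and 476 CPM in PD1+ Tconv, and the fold changes were 0.09 ± 0.77, adjusted p = 0.972 in NK1.1+ and 0.22 ± 0.77, adjusted p = 0.937 in NK1.1-. The sign for Nfkbia reversed in fits that left out NK1.1+ ILTCk replicate 2 (-0.75) or replicate 1 of PD1+ Tconv (-0.50) for NK1.1+ ILTCk. For NK1.1- ILTCk it reversed when NK1.1- ILTCk replicate 2 (-0.63) was left out, or replicate 1 of PD1+ Tconv (-0.37).

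Zfp36 (chr7:28376784-28380253, minus strand) had 148 and 169 CPM in PD1+ Tconv, 467 and 373 CPM in NK1.1- ILTCk and 389 and 1008 CPM in NK1.1+ ILTCk, with no overlap between ILTCk and PD1+ Tconv libraries. The fold changes were 2.14 ± 0.55, adjusted p = 0.185 in NK1.1+ and 1.41 ± 0.54, adjusted p = 0.394 in NK1.1-, and DESeq2 called it for NK1.1+ ILTCk (adjusted p = 0.00481). Fos was arranged alike. Its level was 372 and 632 CPM in PD1+ Tconv, 1422 and 1528 CPM in NK1.1- ILTCk and 879 and 1980.2 CPM in NK1.1+ ILTCk, again without overlap, and the fold changes were 1.51 ± 0.56, adjusted p = 0.305 in NK1.1+ and 1.55 ± 0.57, adjusted p = 0.388 in NK1.1-. Atf3, a stress-induced partner of Jun proteins, had 57.1 and 169 CPM in PD1+ Tconv against 265 and 491 CPM and 186 and 448 CPM in the NK1.1- and NK1.1+ ILTCk groups (1.74 ± 0.69, adjusted p = 0.405 in NK1.1- and 1.49 ± 0.69, adjusted p = 0.389 in NK1.1+). Jun was higher without overlap too, at 289 and 434 and 226 and 666 CPM against 199 and 206 CPM (0.84 ± 0.57, adjusted p = 0.591 in NK1.1- and 1.14 ± 0.57, adjusted p = 0.425 in NK1.1+). Fosl2, a Fos relative, lay the other way, with 136 and 52.0 CPM in PD1+ Tconv and 31.8 and 32.2 CPM in NK1.1- ILTCk (-1.56 ± 0.54, adjusted p = 0.373; -1.16 ± 0.53, adjusted p = 0.383 for NK1.1+ ILTCk). Marker sums also parted all 4 ILTCk libraries from both PD1+ Tconv libraries. The macrophage sum was higher in ILTCk, at 3780 to 24968 against 239 and 1580 CPM. The epithelial sum was higher too, at 6496.5 to 10536 against 2436 and 2673 CPM. The T cell sum was lower, at 967 to 4527 against 8828 and 5323 CPM. The part of these sums in the differences against PD1+ Tconv was not tested.

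Over all 37 members, 5 were higher and 6 lower without overlap in NK1.1+ ILTCk against PD1+ Tconv, beside 20.7% and 20.8% of all genes tested. For NK1.1- ILTCk the counts were 7 and 10, beside 23.1% and 22.7%. These counts lie near or below the shares over all genes, and nothing is read from them about the members. Among the heat shock genes the smallest p against PD1+ Tconv was that of Hsph1, the Hsp110 that resets Hsp70. It had 339.9 and 127 CPM in PD1+ Tconv, 87.0 and 78.4 CPM in NK1.1- ILTCk and 86.3 and 109 CPM in NK1.1+ ILTCk, without overlap (-1.26 ± 0.52, adjusted p = 0.339 in NK1.1+ and -1.50 ± 0.52, adjusted p = 0.375 in NK1.1-). Dnaja1 had 546 and 271 CPM in PD1+ Tconv and 196 and 196 CPM in NK1.1+ ILTCk (-1.06 ± 0.45, adjusted p = 0.355). Hspb1, the small heat shock protein Hsp25, had a positive fold change, with 67.9 and 179 CPM in PD1+ Tconv, 273 and 393 CPM in NK1.1- ILTCk and 146 and 495 CPM in NK1.1+ ILTCk (1.43 ± 0.71, adjusted p = 0.465 in NK1.1- and 1.38 ± 0.71, adjusted p = 0.434 in NK1.1+). Of its 50-base stretches, 48.8% also occur in the pseudogene Hsp25-ps1. Hspa1a and Hspa1b did not order the groups: Hspa1a had 501 and 269 CPM in PD1+ Tconv, 244 and 392 CPM in NK1.1- ILTCk and 191 and 815 CPM in NK1.1+ ILTCk. The fold changes of Hspa1a were 0.38 ± 0.71, adjusted p = 0.856, for NK1.1+ ILTCk and -0.27 ± 0.71, adjusted p = 0.915, for NK1.1- ILTCk. Hspa1b had 1328 and 573, then 593 and 900.4, then 572 and 1673 CPM in the same order (0.24 ± 0.67, adjusted p = 0.911 in NK1.1+ and -0.35 ± 0.67, adjusted p = 0.875 in NK1.1-). Hspa8 had 2893 and 1738 CPM in PD1+ Tconv, 1876 and 3015 CPM in NK1.1- ILTCk and 1696 and 2326 CPM in NK1.1+ ILTCk, with overlap between all 3 groups (-0.20 ± 0.53, adjusted p = 0.904 in NK1.1+ and 0.08 ± 0.53, adjusted p = 0.969 in NK1.1-). Dusp1 overlapped too, at 483 and 364 CPM in PD1+ Tconv (0.59 ± 0.57, adjusted p = 0.7 in NK1.1+ and -0.04 ± 0.57, adjusted p = 0.99 in NK1.1-). Among the remaining members with the smallest p, Zfp36l1 had 37.0 and 55.5 CPM in PD1+ Tconv and 20.5 and 29.9 CPM in NK1.1+ ILTCk (-0.88 ± 0.41, adjusted p = 0.388; -0.88 ± 0.41, adjusted p = 0.439 for NK1.1- ILTCk). Hsp90aa1 differed by -0.90 ± 0.44, adjusted p = 0.407 in NK1.1+ ILTCk. For NK1.1- ILTCk the values were 0.93 ± 0.74, adjusted p = 0.649 in Ier3, -0.94 ± 0.55, adjusted p = 0.528 in Jund, an AP-1 subunit present in resting cells, and -0.99 ± 0.57, adjusted p = 0.521 in Dnajb1.

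**Figure D4:**
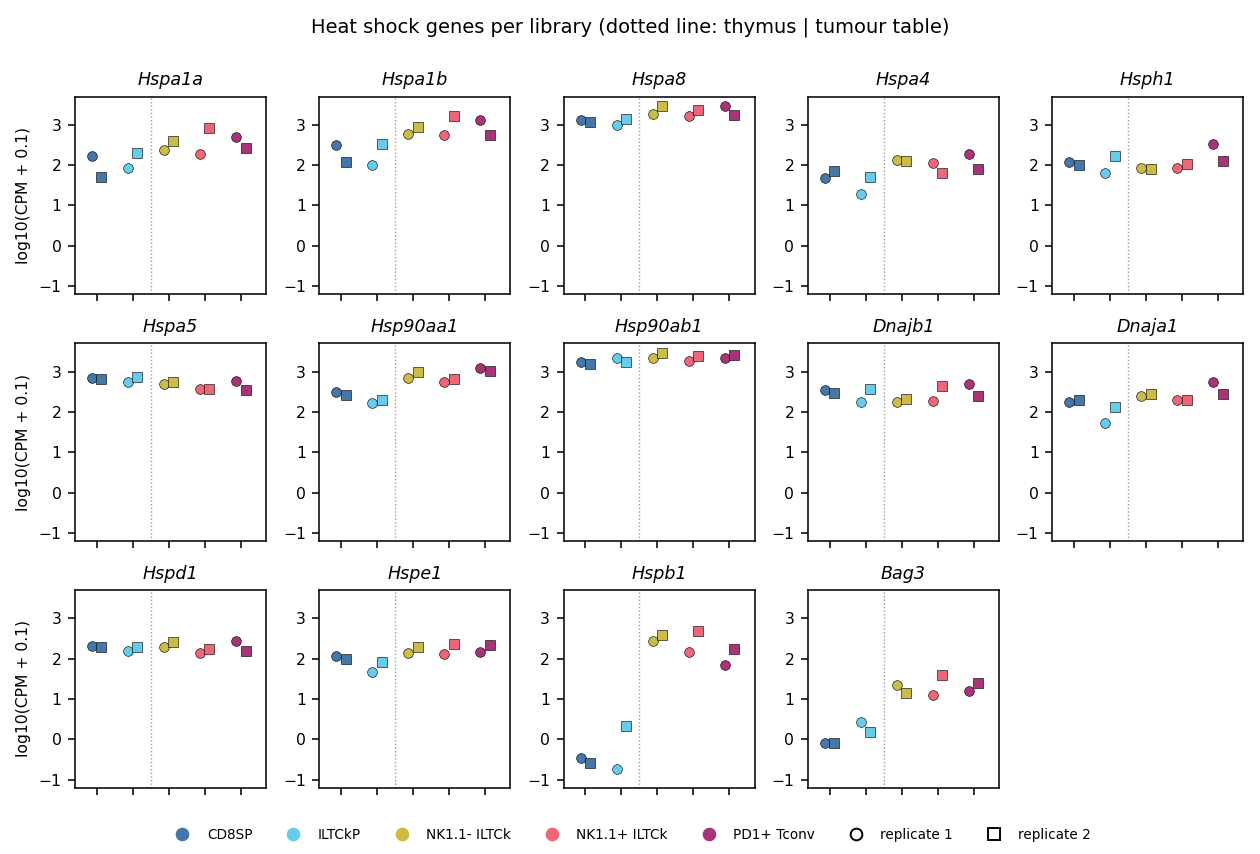
Level of the 14 heat shock members in each library, as log10(CPM + 0.1), drawn as for the immediate early genes. Hsp90ab1 and Hspa8 are the highest members, at 978 CPM or more in every library. Hspa1b is higher in all 6 tumour libraries (572 to 1673 CPM) than in the thymic ones (101 to 331 CPM), whereas Hspa1a overlaps between the tables.

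Between NK1.1+ and NK1.1- ILTCk no member passed the test, and the smallest adjusted p of a member was 0.9998. No member was higher without overlap and 5 were lower (18.6% and 18.9% of all genes), and all 5 were heat shock genes, namely Hspa4, Hspa5, Hsp90aa1, Dnaja1 and Hspd1. That count is below the share over all genes, and nothing is read from it. The smallest p was that of Nfkbiz, with 84.8 and 93.9 CPM in NK1.1- ILTCk and 83.7 and 249.8 CPM in NK1.1+ ILTCk (0.90 ± 0.54). Ppp1r15a had 66.5 and 65.6 CPM and 56.4 and 196 CPM (0.93 ± 0.59), so the NK1.1+ libraries lay on either side of the NK1.1- ones. Dusp1 did the same, with 372 and 454 CPM and 319 and 956 CPM (0.63 ± 0.57). On the same log2 scale the positive fold changes were 0.74 ± 0.56 in Dnajb1, 0.73 ± 0.53 in Zfp36, 0.66 ± 0.55 in Jund, 0.30 ± 0.57 in Jun, 0.66 ± 0.72 in Hspa1a and 0.59 ± 0.67 in Hspa1b. The negative ones were -0.56 ± 0.51 in Hspa4, -0.56 ± 0.43 in Hspd1, -0.51 ± 0.43 in Hsp90aa1, -0.42 ± 0.45 in Dnaja1, -0.51 ± 0.43 in Hspa5, -0.27 ± 0.47 in Hsp90ab1, -0.28 ± 0.53 in Hspa8, -0.13 ± 0.77 in Nfkbia and -0.05 ± 0.55 in Fos. When NK1.1+ ILTCk replicate 2 was left out, 22 of the 37 fold changes took the opposite sign and their median moved from 0.20 to -0.42. When NK1.1+ ILTCk replicate 1 was left out, 5 of the 37 took the opposite sign and the median moved to 0.57.

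The 2 libraries of NK1.1+ ILTCk stood apart from each other in these genes. On the log2(CPM + 0.5) scale, which holds for all 2-fold gaps given here and damps those of genes near 0, NK1.1+ ILTCk replicate 2 exceeded replicate 1 by more than 2-fold in 20 of 37 members and fell below it by that much in 0, whereas over all genes 11.3% were as much higher and 14.1% as much lower. The 20 comprised 15 of the 23 immediate early and feedback genes and 5 of the 14 heat shock genes. Replicate 2 held the highest level of the 6 tumour libraries in 20 members (21% of all genes), and replicate 1 the lowest in 20 members (8.62% of all genes). The widest gaps were in Klf4, a transcription factor induced early and expressed in myeloid and epithelial cells (4.603 and 35.2 CPM), Gadd45b, a stress-kinase regulator (20.3 and 92.9 CPM), and Hspa1a (191 and 815 CPM). Several chaperones, constitutive and inducible, had smaller gaps between the same libraries. Hspa5, the Hsp70 of the endoplasmic reticulum, had 365 and 378 CPM and Hsp90ab1 1857 and 2408 CPM. The inducible Hsp90aa1 had 554 and 643 CPM and Hsph1 86.3 and 109 CPM. Replicate 2 also had 24968 CPM of macrophage markers against 9244 in replicate 1, 967 CPM of T cell markers against 4527, and 20809 CPM of gland genes against 1243. Without replicate 2 the median fold change against PD1+ Tconv moved from 0.11 to -0.67 and 13 of 37 members changed sign. Among them were Dusp1 (0.59 to -0.40), Hspa1a (0.38 to -1.01) and Hspa1b (0.24 to -0.73). Without replicate 1 the median moved to 0.64 and 5 of 37 members changed sign.

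In the other groups the gap took other forms. In PD1+ Tconv, replicate 1 was over 2-fold higher in 7 members, led by Tnfaip3, Hsph1 and Fosl2, and replicate 2 in 5, namely Ier3 (59.3 and 298 CPM), Nfkbia, Atf3, Klf4 and Hspb1. The all-gene shares there were 15.5% and 20.2%. In ILTCkP, replicate 2 was over 2-fold higher in 7 of the 14 heat shock genes and in 2 of the 23 others, Jun and Ier5, beside 13% of all genes tested. The 7 include Hspb1, which was too low to be tested, and without the added 0.5 CPM Ier3, Maff and Atf3, all below 1 CPM in ILTCkP, would also exceed 2-fold. The inducible set of Hspa1a, Hspa1b, Dnajb1 and Hsph1 summed to 425 CPM in ILTCkP replicate 1 and 1063 CPM in replicate 2, and to 963 and 562 CPM in CD8SP. On that scale 2 members had a 2-fold gap in NK1.1- ILTCk, beside 13.9% of all genes, and 3 in CD8SP, beside 3.57%.

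**Figure D5:**
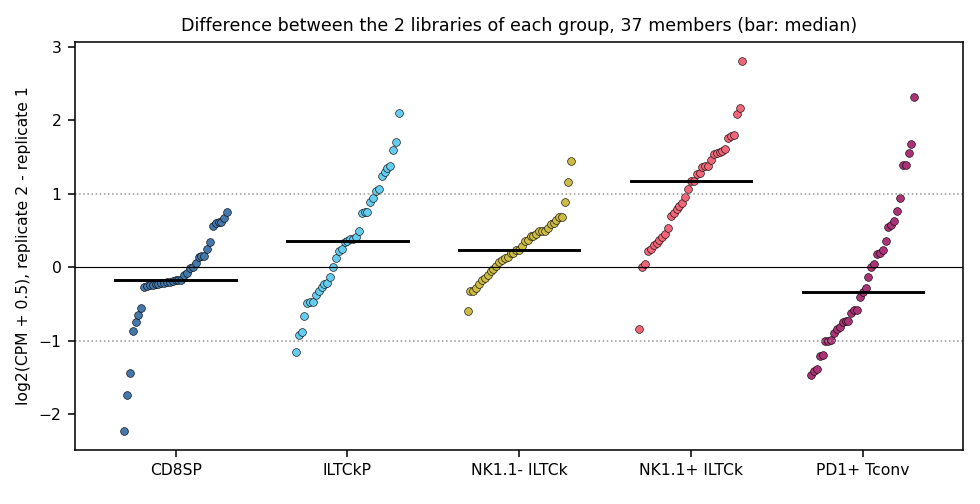
Difference between the libraries of a group, log2(CPM + 0.5) of replicate 2 minus replicate 1, for each of the 37 members (points, sorted within a group) with the group's median (bar); dotted lines mark 2-fold. In NK1.1+ ILTCk 20 members lie above the upper line and 0 below the lower one, while the other 4 medians lie between the dotted lines.

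Across the tables, 21 of the 37 members were higher in all 6 tumour libraries than in all 4 thymic ones, beside 23.7% of 18904 genes, and 1 was lower, beside 17.5%. No test was made, because the tables were scaled separately and share no sample; tissue, mouse model, cell preparation, table and admixed cells cannot be told apart. The 21 comprised 14 of the 23 immediate early and feedback genes and 7 of the 14 heat shock genes. Atf3 had at most 0.414 CPM in the thymus, resting on 17 counts in all, and 57.1 to 491 CPM in the tumour table. Ier3 ranged from 0.0788 to 2.48 CPM in the thymus and from 59.3 to 497 CPM in the tumour table, and Hspb1 from 0.0788 to 1.99 CPM and from 67.9 to 495 CPM. Dusp1 had 19.0 to 29.9 CPM in the thymus and 319 to 956 CPM in the tumour table. Fos, by contrast, overlapped between the tables, since its highest thymic level of 439 CPM was above its lowest tumour level of 372 CPM. So did Junb, at 523 to 970 CPM in the thymus and 341 to 715 CPM in the tumour table, and Ier2, at 257 to 476 and 129 to 332 CPM. The 1 member below in all tumour libraries was Zfp36l1, with 74.6 to 246 CPM in the thymus and 20.5 to 55.5 CPM in the tumour table. Of the heat shock genes, Hsp90aa1 had 163 to 311 CPM in the thymus and 554 to 1224 CPM in the tumour table, whereas Hspd1, the mitochondrial chaperonin, and Dnajb1, the Hsp40 partner of inducible Hsp70, overlapped.

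The surrounding pathway genes were read from 5 lists. In the thymus 3.38% of all genes were called higher in ILTCkP and 1.33% lower. Of 27 tested serum-response and immediate early genes outside the members, 4 were called higher and 0 lower. They were Egr2, an antigen-receptor-induced zinc finger factor, with 45.4 and 43.9 CPM in CD8SP and 161 and 159 CPM in ILTCkP (log2 fold change 1.84 ± 0.22, adjusted p = 0.0121), and Nr4a2 (3.12 ± 0.43, adjusted p = 0.0191), Elk3 (1.42 ± 0.23, adjusted p = 0.0303) and Nr4a1 (1.56 ± 0.25, adjusted p = 0.0306). Nr4a1 and Nr4a2 encode orphan nuclear receptors induced by antigen receptor signals, and Elk3 a cofactor of serum response factor. Of 20 NF-kB pathway genes, Nfkb1, the p50 precursor, was higher (2.31 ± 0.26, adjusted p = 0.0108), as was Tnip1 (1.40 ± 0.26, adjusted p = 0.0432), a partner of A20, and the IκB gene Nfkbid was lower (-1.39 ± 0.24, adjusted p = 0.0359). Of 37 heat shock factors and further chaperones 1 was called, Hsf4, at 0.0345 and 0.0316 CPM in CD8SP and 3.82 and 2.54 CPM in ILTCkP. Of 29 unfolded protein and integrated stress response genes 1 was called, Edem1, lower at -1.80 ± 0.31 (adjusted p = 0.0353), and of 15 other AP-1 and bZIP genes 0. Over all genes 4.71% were called in either direction. The chaperone, stress response and AP-1 lists lie below that share, and nothing is read from their counts. In the tumour table none of the 5 lists held a call in edgeR. The smallest p there belonged to Nr4a3, with -3.19 ± 0.39 in NK1.1+ ILTCk against PD1+ Tconv (adjusted p = 0.0779) and -2.92 ± 0.39 in NK1.1- ILTCk (adjusted p = 0.285).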

How the data were processed

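Bulk RNA-sequencing was available as 2 tables deposited by the authors, which hold whole-number read counts per gene symbol with a different total in each library. Per the submitters' processing notes, mm10 and DESeq were used, with no role stated. Not given in the sources used here were the aligner, the counting program and the strand setting. The single-cell libraries, with Cell Ranger 3.0.2 and Seurat 2.3.4 in those notes, were not analysed here.

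Each table was fitted on its own. Genes had to pass filterByExpr (14634 thymic, 18091 tumour; Atf3, Klf4 and Hspb1 did not pass in the thymus). Libraries were scaled with TMM, and edgeR 4.0.16 (R 4.3.3) gave robust quasi-likelihood tests, two-sided, with Benjamini-Hochberg adjustment over all genes of a table. Calls needed an adjusted p below 0.05 and no minimum fold. All 6 tumour libraries gave the spread for each tumour comparison. Levels are CPM scaled by TMM, and RPKM divides these by the merged exon length of GENCODE M21. Fold changes are log2 ± standard error. The standard error is the absolute log2 fold change divided by the square root of the quasi-likelihood F statistic. The scripts were tested on simulated data with set changes of 2-, 4- and 8-fold. For ILTCkP against CD8SP 8.96%, 67.2% and 77.3% of these were called. For NK1.1+ ILTCk against PD1+ Tconv it was 0%, 0% and 10.6%. A lack of calls in the tumour table therefore does not show that levels were alike.

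The members and gene lists were chosen with earlier results of these data known. Fold changes are given for called members, for up to 6 members per direction with the smallest p, and for Fos, Jun, Dusp1, Nfkbia, Hspa1a, Hspa1b and Hspa8 whatever their result. The thymic value of 1 member that this rule names is not reported here. Of each pathway list, called genes and up to 3 with the smallest p could be named. Alternatives were RLE scaling, DESeq2 1.42.0, limma-voom (limma 3.58.1), no filter, a minimum of 50 counts in 2 libraries, a block for replicate number, Hspa1a and Hspa1b summed, a fit of only the 4 compared libraries, and leaving out each library. Leaving out replicate 2 of both NK1.1+ ILTCk and PD1+ Tconv was added after seeing the data.

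Marker lists covered T cells, macrophages and myeloid cells, epithelial and mammary tumour cells, gland secretory cells (Muc10 had no row), stromal and endothelial cells, B cells and erythroid cells. Summed CPM of the last 3 lists was 71.6 to 123, 45.1 to 106 and 0.633 to 90.0 in the thymic libraries, and 69.2 to 908, 7.86 to 71.9 and 73.4 to 742 in the tumour table.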

Additional observations from a re-analysis of the deposited data

How the results depend on the processing

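With 2 libraries a group, counts of calls depended on the method and on single libraries, and the cause was not tested. For ILTCkP against CD8SP 689 genes were called in edgeR, against 1997 in DESeq2, 2535 with no filter, 2212 with the replicate block and 592 to 7017 with a library left out. Its 0 called members became 3, 7 and 6 under the first 3 of these, and 0 to 17 with a library left out. For NK1.1+ ILTCk against PD1+ Tconv the 0 calls became 1268 in DESeq2, 3 in limma-voom, 1249 with no filter, 755 with the block and 0 to 35 with a library left out, of which members made up 2, 0, 2, 3 and 0. NK1.1- ILTCk against PD1+ Tconv went from 0 to 707, 799 and 298 in DESeq2, with no filter and with the block, of which 1, 2 and 1 were members. NK1.1+ against NK1.1- ILTCk went from 0 to 57 in DESeq2 and 167 with no filter, with 0 members.

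Same-numbered libraries deviated together with correlations of 0.156 in the thymus and 0.387, 0.354 and 0.388 in the tumour comparisons. There are 2 such pairs a comparison, and the labels tie them by number alone. Whether they share a mouse, batch or day is not given in the sources used here. The members called with the block were Dnaja1, Fosb, Zfp36, Ppp1r15a, Junb and Zfp36l1 in the thymus, Atf3, Zfp36 and Tnfaip3 in NK1.1+ ILTCk and Atf3 in NK1.1- ILTCk.

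A lone library left in a group is assumed to vary like the other groups. With a library left out, log2 fold changes of these named members took the opposite sign in at least 1 fit, and their lowest and highest values were as follows. In ILTCkP against CD8SP they were Hspa1a -0.39 to 1.51, Hspa1b -1.13 to 0.87, Hspa8 -0.39 to 0.11, Jun -1.05 to 0.56 and Nfkbia -0.17 to 0.094. In NK1.1+ ILTCk against PD1+ Tconv they were Dusp1 -0.40 to 1.18, Hspa1a -1.01 to 1.09, Hspa1b -0.73 to 0.99, Hspa8 -0.56 to 0.23 and Nfkbia -0.75 to 1.13. In NK1.1- ILTCk against PD1+ Tconv they were Dusp1 -0.24 to 0.20, Hspa1a -0.67 to 0.26, Hspa1b -0.85 to 0.40, Hspa8 -0.28 to 0.51 and Nfkbia -0.63 to 1.28. In NK1.1+ against NK1.1- ILTCk they were Dnajb1 -0.043 to 1.25, Dusp1 -0.37 to 1.21, Fos -0.75 to 0.42, Hspa1a -0.74 to 1.36, Hspa1b -0.39 to 1.16, Hspa8 -0.58 to 0.065, Jun -0.68 to 0.88, Jund -0.055 to 1.14, Nfkbia -0.98 to 0.73, Nfkbiz -0.095 to 1.48, Ppp1r15a -0.23 to 1.57 and Zfp36 -0.11 to 1.26.

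In the setting chosen after seeing the data, without replicate 2 of NK1.1+ ILTCk and of PD1+ Tconv, Dusp1 was at -0.62, Hspa1a at -1.42 and Hspa1b at -1.24 against PD1+ Tconv.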
